A study of Mus musculus with 3 samples.

Results

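The BCL2 family sets whether a cell survives or dies through its mitochondria, and 10 of its genes were followed in blood progenitor cells of mice that carry a KDM1A transgene. The members were Bcl2, Bcl2l1, Bcl2l2 and Mcl1 on the survival side, and Bak1, Bax, Bid, Bcl2l11, Bbc3 and Pmaip1 on the death side. All probe sets that the platform annotation pairs with 1 of these symbols, and with no other, were taken, which gave 31 probe sets of 9 genes among 45037 probe sets and 18193 genes on the arrays. The annotation used here paired no probe set with Bax, so Bax was not analysed here.

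Expression was measured on 3 Affymetrix GeneChip arrays, 1 per genotype, in bone marrow cells of 10-week-old C57BL/6J mice sorted as Sca-1-positive and negative for lineage markers, where one finds haematopoietic stem and progenitor cells. The groups were wild type, Line 6 and Line 3, and both lines carry a construct with the name Tg(Ly6a-KDM1A*v2. KDM1A, also called LSD1, is a histone demethylase, and Ly6a is the gene of Sca-1, the surface protein used for sorting. The series asks how KDM1A affects the expression program of progenitor cells. The sources used here do not give the number of mice behind an array, their sex or any pooling of cells. Because each genotype had 1 array, the difference of either line from wild type has no replicate error and no test, and a limma fit that takes both lines as 1 group is described further on.

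Proteins of this family act at the outer membrane of mitochondria. BAX and BAK open pores that release cytochrome c, which sets off the caspases, while BCL2, BCL-XL, BCL-W and MCL1 hold them in check. BH3-only proteins such as BIM, BID, PUMA and NOXA carry death signals by binding these guardians, and some of them also engage BAX and BAK directly. Mouse stem cells depend on MCL1 for survival, and forced BCL2 expression enlarges the mouse stem cell pool.

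Values are intensities on the linear scale that the authors deposited, 1 per probe set and array. Differences are on the scale log2(intensity + 16), with wild type taken from each line, or Line 6 from Line 3, and this scale understates the change of dim probe sets. The brightest probe set by mean over the 3 arrays stands for a gene. A gene was kept if it reached the median of all probe sets on 1 array or more, as 10866 genes did. Of the 9 genes with probe sets, 8 were kept, each at or above the median on all 3 arrays, and Bbc3 was not. A change of 2-fold was the limit for calling a gene higher or lower.

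On the same arrays, Kdm1a read 2104 for wild type, 2575 for Line 6 and 2979 for Line 3 on its brighter probe set, and 916, 911 and 1482 on the dimmer one. The sources used here do not say if these probe sets also see the transgene. The progenitor marker Kit read 603, 899 and 923, and Cd34 read 971, 1838 and 2315. Neutrophil genes were bright on all arrays of this lineage-negative sort, with Camp, a granule peptide gene, at 17667, 12164 and 9679. Xist was higher in both lines on its 3 probe sets, by 0.91 to 2.16, and Eif2s3y on the Y chromosome was lower. The brightest Xist probe set read 2729 for wild type, 6152 for Line 6 and 5155 for Line 3. The brighter one of Eif2s3y read 2325, 978 and 1031, so each array read both genes above its median. The sex of the mice and the genotype cannot be told apart, and whether an array held cells of both sexes was not tested. Over all probe sets the median was 96.2 for wild type, 116 for Line 6 and 99.0 for Line 3.

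Among the 8 kept members, Bcl2 was higher than wild type by the most in both lines, and Pmaip1 and Bcl2l1 were lower by the most. Bcl2, on its brightest probe set, was higher by 1.53-fold for Line 6 and by 1.81-fold for Line 3. Pmaip1, the gene of the BH3-only protein NOXA, was 1.67-fold lower and 1.71-fold lower. Bcl2l1, the gene of BCL-XL, was 1.38-fold lower and 1.52-fold lower. None of the 8 kept members passed 2-fold in either line. Of all kept genes, 2.6% were 2-fold higher and 2.43% lower in Line 6, 3.6% and 4.47% in Line 3, and 1.35% and 2.08% in both. With a limit of 1.5-fold, 1 of 8 members (Bcl2) was higher in both lines beside 6.28% of kept genes, and 1 (Pmaip1) was lower in both beside 5.43%. Bcl2l1 was a second member lower by 1.5-fold in Line 3. The 1.5-fold shares of all kept genes were 9.37% higher and 6.96% lower in Line 6, and 15.2% and 10.3% in Line 3.

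**Figure D1:**
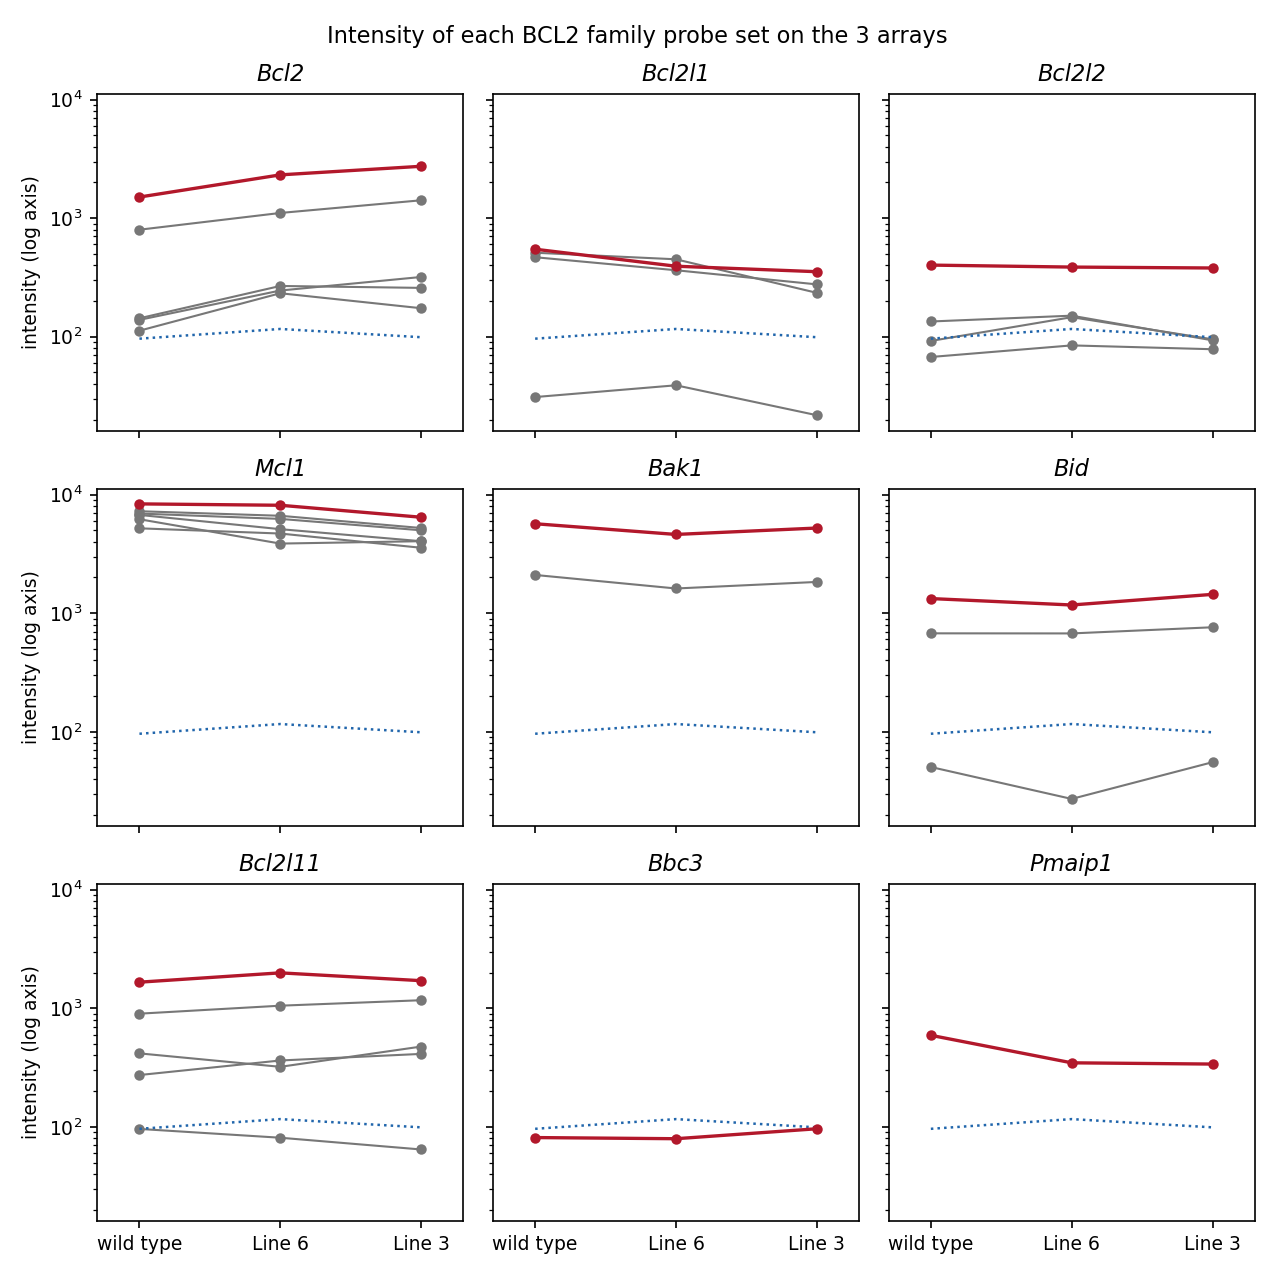
Intensity (log axis) of each member probe set on the wild type, Line 6 and Line 3 arrays, 1 panel per gene, 1 point per array. The red line is the brightest probe set of the gene, grey lines are its other probe sets and the dotted line is the median intensity of each array. All 5 Bcl2 lines climb from wild type to both transgenic arrays, all 6 Mcl1 lines end lower, and Bbc3 lies below the dotted line.

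Bcl2 encodes the founding guardian of the family, and its 5 probe sets were read separately. The brightest read 1505 for wild type, 2315 for Line 6 and 2735 for Line 3. The next read 798, 1105 and 1413. Both put wild type lowest and Line 3 highest. The 3 dim probe sets read 139, 245 and 319, then 143, 268 and 258, and then 112, 233 and 174, so that wild type was again lowest while the order of the lines varied. Over the 5 probe sets the difference ran from 0.46 to 0.95 in Line 6 and from 0.56 to 1.11 in Line 3. Such full agreement, with every probe set higher in both lines, was found in 9.93% of the 856 genes that have 5 or more probe sets. The probe sets of a gene share the RNA of an array, so they check the probes and not the mice. Of all kept genes, 8.45% had a difference as high as that of Bcl2 in Line 6, and 6.06% did in Line 3. The direction of all 5 probe sets was the same after quantile normalization, after centring on array medians and after cyclic loess. Centring takes 0.24 from every Line 6 difference and 0.04 from every Line 3 difference, and leaves 0.38 for Bcl2 in Line 6.

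Stem and progenitor cell markers were higher on the same arrays as Bcl2. Of 12 listed markers, 11 had probe sets and 9 were kept, and all 9 were above wild type in both lines, 3 of them past 2-fold in both. Of these 3, Procr and Mecom were kept only through the lines, with wild type values of 32.3 and 69.6. Their summed intensity over the 11 markers was 7645 for wild type, 11348 for Line 6 and 14247 for Line 3. B cell markers summed to 3785, 12044 and 4424, and all 11 measured were above wild type in Line 6, against 6 of 11 in Line 3. Of these 11, Rag2 was kept only through the lines and Ms4a1 only through Line 6, with wild type values of 62.7 and 83.5. Ms4a1 read 35.4 for Line 3, below wild type. Monocyte and macrophage markers summed to 27278, 25217 and 28679, and of 13 kept, 5 were 2-fold higher and 1 was 2-fold lower in both lines. Of these 5, Cd5l was kept only through the lines, with a wild type value of 65.4. Mast cell and basophil markers summed to 14936, 15026 and 26270, and of 6 kept, 5 were 2-fold higher in Line 3 and none in Line 6. Gata2, among these 5, is on the stem and progenitor list too, and read 1984, 3056 and 4114, so both sums include it. Of all kept genes, 1.35% were 2-fold higher and 2.08% lower in both lines, and 2.6% were higher in Line 6 and 3.6% in Line 3. No marker was listed at 0. More cells of a type and more RNA per cell cannot be told apart in bulk samples, and the part of these cell types in the Bcl2 values was not tested.

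Mcl1 encodes the short-lived guardian on which blood stem cells rely. It was bright on every array, and its brightest probe set read 8346 for wild type, 8127 for Line 6 and 6442 for Line 3. Its 3 probe sets with a plain suffix read 6920, 6237 and 5000, then 6195, 3863 and 4045, and then 6739, 5109 and 4045. The remaining 2, which like the brightest have a suffix for probes that may match other sequences too, read 7238, 6626 and 5226, and 5193, 4694 and 3561. All 6 were highest in wild type, a pattern shared by 5.26% of the 856 genes with 5 or more probe sets. The size differed between probe sets, from -0.04 to -0.68 in Line 6 and from -0.37 to -0.73 in Line 3. In Line 6 the brightest probe set turned to 0.01 after quantile normalization, while the other 5 stayed below wild type. On that probe set, 38.0% of kept genes were as low in Line 6 and 16.1% in Line 3.

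Neutrophil markers were lower on the same arrays as Mcl1, Bcl2l1 and Pmaip1. All 12 measured of 14 listed were below wild type in both lines, with median differences of -0.88 in Line 6 and -1.34 in Line 3. Of these 12, 5 were 2-fold lower in both, beside 2.08% of all kept genes. Their summed intensity was 146278 for wild type, 101111 for Line 6 and 78473 for Line 3, and none was listed at 0. Their part in the lower values of the 3 members was not tested. All 6 megakaryocyte markers were kept, and 6 were above wild type in Line 6 and 4 in Line 3. Of 5 kept erythroid markers, 3 were above it in Line 6 and 4 in Line 3. Of 9 kept T and natural killer cell markers, 6 were above it in Line 6 and 4 in Line 3.

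The sequence just upstream of the start of Bcl2 and of Mcl1 is shown because these members, each with 5 or more probe sets, went in opposite directions on all probe sets of the deposited scale. Both are the 250 bases before the start in the RefSeq table of build GRCm38.p6, read 5′ to 3′ on the gene's strand, and capitals mark the motifs searched for on both strands. These were AATC, the core bound by GFI1 and GFI1B, repressors that recruit LSD1, then CCGGAA, an ETS core, and TGACG, a CREB core.
Bcl2, chr1:106714291-106714540, minus strand: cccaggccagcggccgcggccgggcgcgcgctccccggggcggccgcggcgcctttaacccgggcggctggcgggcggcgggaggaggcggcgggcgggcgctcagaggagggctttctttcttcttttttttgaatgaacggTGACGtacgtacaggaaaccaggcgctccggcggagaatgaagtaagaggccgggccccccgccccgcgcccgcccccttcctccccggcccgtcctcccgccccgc
Mcl1, chr3:95658471-95658720, plus strand: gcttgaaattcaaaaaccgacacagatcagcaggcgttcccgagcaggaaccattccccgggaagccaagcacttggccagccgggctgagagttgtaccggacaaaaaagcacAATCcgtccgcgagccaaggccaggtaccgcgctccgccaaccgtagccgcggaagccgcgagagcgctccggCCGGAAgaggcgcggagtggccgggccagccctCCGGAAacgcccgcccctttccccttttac
The Bcl2 window held 1 TGACG, 107 to 103 bases before the start, and neither of the other motifs. The Mcl1 window held 1 AATC, 136 to 133 bases before the start, and 2 copies of CCGGAA, at 63 to 58 and 30 to 25 bases. No 2 of these matches overlap. Of 32851 windows of that length, 69.0% held AATC, 12.0% held CCGGAA and 17.8% held TGACG. The share of G and C was 74.8% in the Bcl2 window and 64.4% in the Mcl1 window, against a median of 52.4% over all windows. A match describes letters only, and binding was not measured.

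Bcl2l1 encodes BCL-XL, a guardian needed by maturing red cells and platelets. Its brightest probe set read 547 for wild type, 393 for Line 6 and 353 for Line 3. The next 2 read 511, 449 and 234, and 468, 363 and 276. In these 3 probe sets wild type was highest and Line 3 lowest. The fourth probe set was below the median on every array at 31.0, 38.9 and 21.8, and was higher in Line 6. The probe sets gave differences of -0.46, -0.18 and -0.35 in Line 6 and of -0.61, -1.07 and -0.73 in Line 3, in the order given. The second was the 1 probe set among 31 that was 2-fold lower in Line 3, where 4.4% of all probe sets with 1 symbol were. A Bcl2 probe set, at 1.11, was the 1 that was 2-fold higher, beside 3.54% of all such probe sets. In Line 6 none of the 31 passed in either direction, beside 3.89% higher and 2.79% lower. The sources used here do not say which spliced forms of Bcl2l1 each probe set detects.

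Bcl2l2 encodes BCL-W, and it differed little from wild type. Its brightest probe set read 402 for wild type, 386 for Line 6 and 380 for Line 3, which gives -0.05 and -0.08. The 3 dimmer probe sets, all near the array medians or below, gave 0.15 to 0.58 in Line 6 and -0.46 to 0.18 in Line 3. On the deposited scale all 3 were above wild type in Line 6, unlike the brightest, and in Line 3 they lay on both sides of it. The probe set at 0.15 in Line 6 turned to -0.08 after quantile normalization, -0.09 after centring on array medians and -0.08 after cyclic loess.

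Bak1 encodes the pore former BAK, the 1 effector measured. It read 5677 for wild type, 4612 for Line 6 and 5222 for Line 3 on the brightest probe set, and 2100, 1615 and 1834 on the other. Wild type was highest and Line 6 lowest on both. The differences were -0.30 and -0.38 in Line 6 and -0.12 and -0.19 in Line 3, and these signs held under each of the 3 other scalings.

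Pmaip1 encodes NOXA, a BH3-only protein that binds MCL1 and is a known target of p53. Its 1 probe set read 591 for wild type, 347 for Line 6 and 338 for Line 3. The lines lay close to each other and below wild type. Its differences were -0.74 and -0.78, and 4.59% of kept genes were as low in Line 6 and 6.75% in Line 3. Over 10 settings of scaling, filter, probe set and pseudocount they ran from -0.98 to -0.67 in Line 6 and from -0.88 to -0.70 in Line 3.

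Bcl2l11 encodes BIM, the BH3-only protein that kills cells deprived of growth factor, and its 5 probe sets did not share a direction. The brightest read 1659 for wild type, 1988 for Line 6 and 1708 for Line 3. Others read 900, 1051 and 1168, and 273, 363 and 412, so that these 3 were higher in both lines. The fourth read 416, 321 and 475, lower in Line 6 and higher in Line 3. The fifth, below the median on each array, read 96.0, 80.9 and 64.4. The differences ran from -0.36 to 0.39 in Line 6 and from -0.48 to 0.56 in Line 3. After cyclic loess the brightest turned to -0.01 in Line 3.

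Bid encodes a BH3-only protein that links death receptors to mitochondria after cleavage by caspase 8. It read 1328 for wild type, 1172 for Line 6 and 1441 for Line 3 on its brightest probe set. The second read 676, 675 and 761, and the third, a dim one, read 50.4, 27.1 and 55.4. All 3 were lower in Line 6 and higher in Line 3, with differences on the brightest of -0.18 and 0.12. Bbc3, the gene of the p53 target PUMA, had 1 probe set that stayed below the median of each array at 81.2, 79.4 and 96.3. The deposited table has no detection calls, and a reading this dim may be background.

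**Figure D2:**
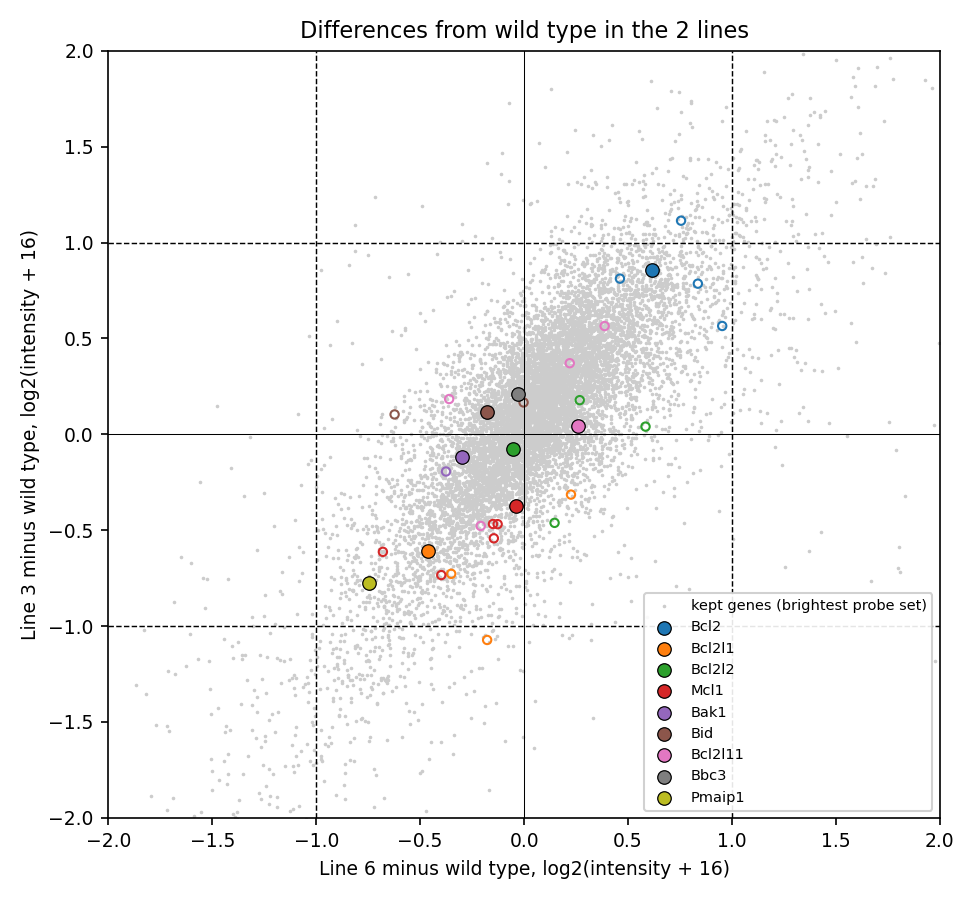
Line 6 minus wild type (x axis) against Line 3 minus wild type (y axis), on the log2(intensity + 16) scale; dashed lines mark 2-fold. Grey points are kept genes, filled circles are each member's brightest probe set and open circles its other probe sets, and axes stop at 2, so some grey points lie outside. Both differences share the wild type array. Bcl2 lies at 0.62 and 0.85, Pmaip1 at -0.74 and -0.78.

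As a group the 8 kept members stood on both sides of wild type. Their median difference was -0.12 in Line 6, with 2 above and 6 below wild type, and -0.10 in Line 3, with 3 above and 5 below. Over all kept genes the medians were 0.06 and 0.12. The median size of the difference, whatever its sign, was 0.28 for the members and 0.24 for all kept genes in Line 6, and 0.25 and 0.33 in Line 3.

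In a limma fit with both lines as 1 transgenic group of 2 arrays, none of the 8 members passed an adjusted p of 0.05, and 2 had an unadjusted p under 0.05, beside 0.0552% and 16% of all kept genes. The 2 were Pmaip1, with an adjusted limma p of 0.202, and Bcl2, with 0.221. That fit assumes that the lone wild type array varies like the lines, and it counts any difference between the lines as noise.

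The lines were also compared with each other. On its brightest probe set, every kept member lay within 1.5-fold between Line 3 and Line 6. Of all kept genes, 4.38% were 1.5-fold higher and 5.3% lower. Some other probe sets of members differed by more. The second of Bcl2l1, at 449 for Line 6 and 234 for Line 3, was 1.86-fold lower in Line 3. A dim Bcl2l2 probe set was 1.52-fold lower in Line 3, and a dim Bid one was 1.65-fold higher. At 2-fold, 0.727% of genes were higher in Line 3 and 1.58% lower. On the deposited scale Mcl1 differed by -0.33, and was lower in Line 3 on 5 of its 6 probe sets. Bid differed by 0.29 and Bcl2 by 0.24. This order depended on the setting: with arrays centred on their medians, the differences were -0.13 for Mcl1, 0.49 for Bid and 0.44 for Bcl2. Over all kept genes this difference had an SD of 0.38, a spread in which biology and noise cannot be told apart.

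**Figure D3:**
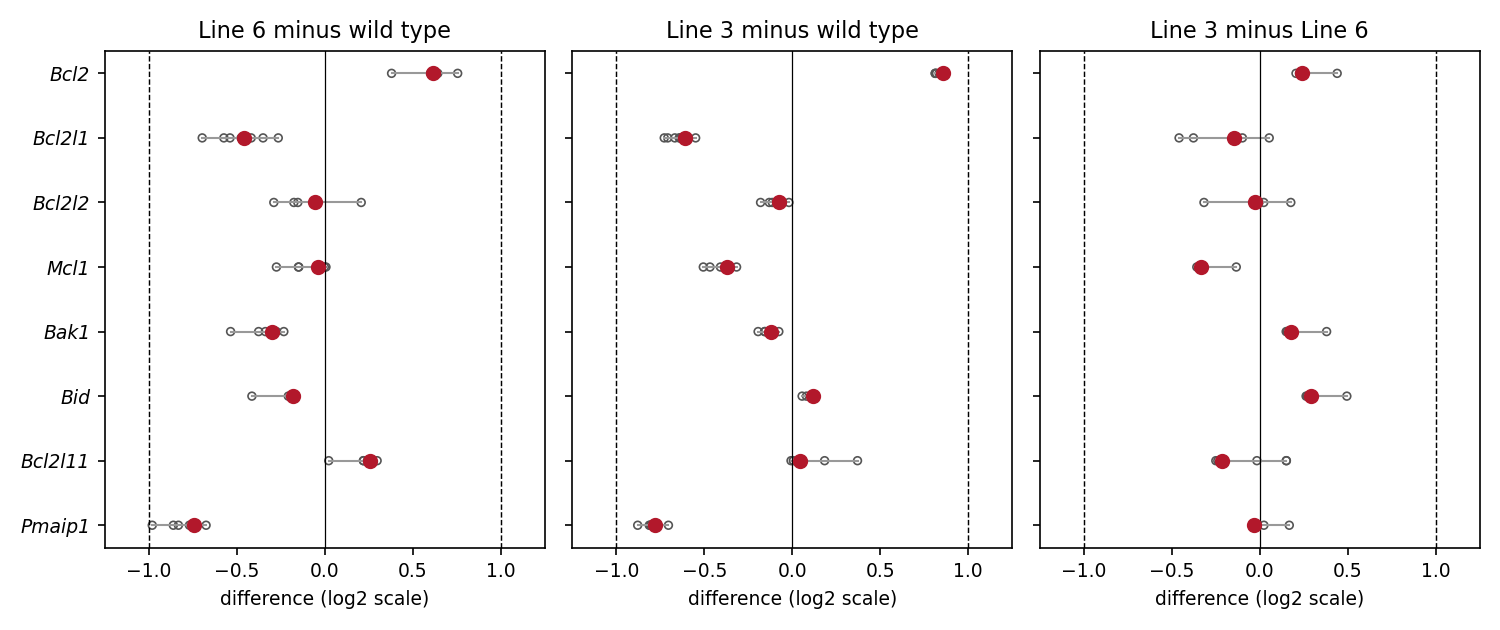
Difference of each kept member on the log2 scale for the 3 comparisons. The red point is the value on the deposited scale, open points are the values under other scalings, filters, probe set choices and pseudocounts, and dashed lines mark 2-fold. Bcl2 stays above 0 and Pmaip1 below 0 against wild type, and no point reaches 2-fold.

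Other genes of the cell death pathway were read from 5 lists. Of their 73 kept genes, 1 was 2-fold higher and 1 lower in Line 6, beside 2.6% and 2.43% of all kept genes. In Line 3 none was higher and 3 were lower, beside 3.6% and 4.47%, so nothing particular to these lists is read from the counts. Among 18 other BCL2 family genes, 13 had probe sets and 9 were kept. None of the 9 passed in Line 6, and Bok alone passed in Line 3, at 108 for wild type, 89.0 for Line 6 and 33.0 for Line 3. Bok encodes a BAX-like protein, and it was kept only through its wild type value. Bcl2l12 was higher by 0.23 in Line 6 and 0.41 in Line 3 on its brightest probe set, and by 0.29 and 0.07 on its second. Bmf, a BH3-only gene, read 295, 315 and 173 on its brightest probe set. A second Bmf probe set was 2-fold lower in both lines, at 221, 98.8 and 99.5, with its Line 6 value below that array's median. The third, a dim one, was above wild type in both lines, at 84.4, 117 and 92.0.

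For caspases, the apoptosome and their inhibitors, all 19 measured of 21 genes were kept. None passed 2-fold in either line, a count to be read against the shares of all kept genes just given, with median differences of 0.03 in Line 6 and 0.15 in Line 3. The mitochondrial nuclease gene Endog read 536 for wild type, 638 for Line 6 and 1026 for Line 3, and its second probe set read 130, 110 and 183. Birc3, an inhibitor of apoptosis, read 1262, 996 and 795, and its second probe set 190, 162 and 176. Aifm1, an apoptosis factor of mitochondria, read 1141, 1360 and 1709. The second probe set of Endog was below wild type in Line 6, and that of Birc3 was nearer to wild type in Line 3 than in Line 6.

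Of 13 kept death receptor genes among 14 listed, Fas was the 1 past 2-fold, and only in Line 3. The gene of the FAS death receptor read 214 for wild type, 123 for Line 6 and 43.7 for Line 3, a difference of -0.72 and -1.95. The last value lay below its array's median. Tnfsf10, the gene of the ligand TRAIL, read 184, 325 and 354, and was higher in both lines on all 3 probe sets. Its mouse receptor gene Tnfrsf10b read 47.5, 90.5 and 105, and was kept only through Line 3. The other Tnfrsf10b probe set, below the median on every array, read 41.0, 55.5 and 38.0, with Line 3 below wild type.

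Genes of the p53 pathway went both ways. Of 20 listed, 19 had probe sets and 14 were kept, and Sesn2 was the 1 past 2-fold, lower in both lines. Sesn2, a stress-induced sestrin, read 1014 for wild type, 442 for Line 6 and 403 for Line 3. Its second probe set read 395, 441 and 318, which puts Line 6 above wild type. Atm, the DNA damage kinase gene, read 535, 888 and 1027, and its second probe set, at 249, 486 and 497, was likewise highest in the lines.

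Among 19 regulators of BCL2 family genes and proteins, all kept, Foxo1 was the 1 past 2-fold, and only in Line 6. FOXO1 is a forkhead factor restrained by growth factor signalling. Its brightest probe set read 375 for wild type, 845 for Line 6 and 711 for Line 3, which gives 1.14 and 0.89, and centring on array medians left 0.90 for Line 6. A further 2 probe sets had differences of 0.69 and 0.70 for Line 6 and of 0.64 and 0.68 for Line 3, and the last gave 0.12 and -0.32. Stat3, a cytokine-activated factor, read 3213, 2365 and 1918. Pim2, a survival kinase gene, read 254, 452 and 311. The median differences of the list were 0.29 and 0.20, and the Line 6 value was 0.05 after centring.

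**Figure D4:**
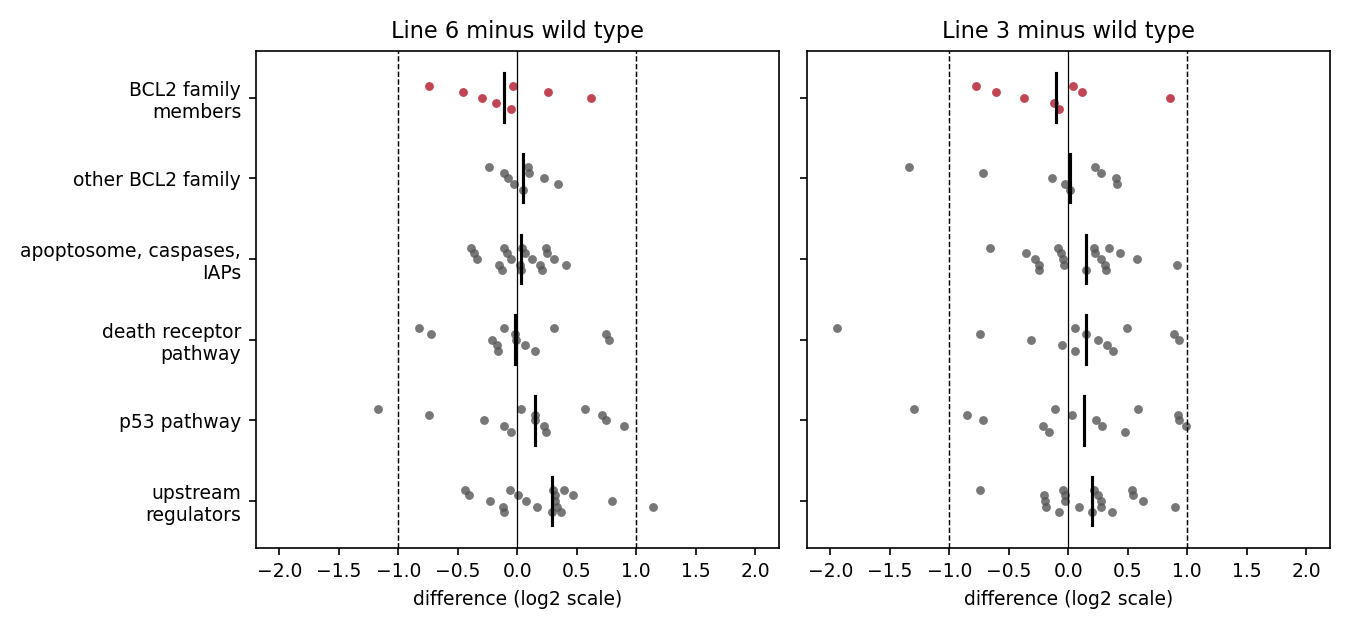
Differences from wild type on the log2 scale in Line 6 (left) and Line 3 (right) for the kept BCL2 family members and for the kept genes of 5 other cell death lists. Each point is a gene, black bars are list medians and dashed lines mark 2-fold. Most points lie inside the dashed lines, and the lowest point on the right is Fas at -1.95.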

How the data were processed

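Per the labels' protocols, RNA was taken with Trizol, amplified (Ovation Pico WTA System), and 3 ug was labelled with biotin for Affymetrix arrays. The authors deposited 1 intensity per probe set and array. The sources used here give no summary method, scaling or software. The deposited values had been scaled, since the mean of each array was 497 once 2% of probe sets at both ends were left out. Of 45037 probe sets, 34945 had 1 gene symbol, 932 had several and 9160 had none listed here, and symbols were updated by Entrez identifier through RefSeq (GRCm38.p6).

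The members and lists were chosen with earlier results of these data known. The text names all members and, per list, the genes past 2-fold in either line, up to 6, filled to 3 by the largest mean difference. The motifs were chosen after the promoter sequences were seen. The number of arrays limits the precision. The procedure was tested on simulated data. The differences seeded there were larger than any of the members, so that test does not cover changes of their size. Alternatives covered the scaling (quantile, median centring, cyclic loess), the filter (none, percentile 75), the probe sets (median of a gene, plain _at), the pseudocount (1, 64), the limit (1.5-fold, 3-fold) and a limma fit with both lines as 1 group. Software was Python 3.11.15 with numpy 2.4.6, pandas 2.3.3 and matplotlib 3.10.9, and R 4.3.3 with limma 3.58.1.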

Additional observations from a re-analysis of the deposited data

Results flagged for a closer look

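Bid and the BH3-only gene Bmf lay on opposite sides of wild type in the lines on the deposited scale, and neither difference was tested, because each line had 1 array. This was not particular to them. Other kept genes of the lists did the same, such as Bad at -0.03 in Line 6 and 0.41 in Line 3, and Htra2 at -0.16 and 0.22. Of the 31 member probe sets, 7 lay on opposite sides, and the share over all kept genes was not computed. Bid was 0.29 higher in Line 3 than in Line 6 on the log2 scale, with all 3 probe sets running the same way. Bmf was -0.81 in Line 3 relative to Line 6 on its brightest probe set, while its second probe set gave 0.01. With quantile normalization, median centring or cyclic loess, that brightest probe set was below wild type in both lines, at -0.04, -0.15 and -0.08 in Line 6.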

How the results depend on the processing

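With the limit at 1.5-fold, 2 members passed in Line 6, 3 in Line 3 and 2 in both lines, where none passed at 2-fold. No member passed 2-fold in any of the 3 comparisons under the other scalings, filters, probe set choices and pseudocounts, nor at 3-fold. Against wild type, Bcl2, Bcl2l1, Bak1, Bid and Pmaip1 kept their direction in every setting that gave a value, while Mcl1 and Bcl2l2 turned in 1 setting in Line 6 and Bcl2l11 in 1 in Line 3, each while within 1.5-fold. Between the lines, Bcl2, Mcl1, Bak1 and Bid kept their direction, while Bcl2l1 turned in 1 setting and Bcl2l2, Bcl2l11 and Pmaip1 in 2 each, all within 1.5-fold. Bcl2l1 and Bcl2l2 had no value with the filter at percentile 75. No paired analysis was possible because each genotype had 1 array, and leaving out an array removes a genotype. Probe sets near or below the array medians carry no detection call, so their order is uncertain.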

Other observations

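A few further genes of the lists, named after their values were seen, differed in both lines by more than 1.5-fold. Of all kept genes, 6.28% were 1.5-fold higher in both lines and 5.43% lower. Tnfrsf1a, the gene of the main TNF receptor, read 3267 for wild type, 1832 for Line 6 and 1952 for Line 3. Gadd45a, a stress-induced gene of the p53 list, read 2229, 1325 and 1225. Both were highest in wild type. Phlda3, a p53 target gene that restrains AKT, read 3.29 for wild type, 87.8 for Line 6 and 69.5 for Line 3. All 3 of its values were below the array medians, so it was outside the comparisons. Hrk, of the other BCL2 family list, was outside them for the same reason, and read 41.4, 21.9 and 14.4 on its brightest probe set.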
